A study of Mus musculus with 8 samples.

Results

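The carriers described here are the solute carrier (SLC) genes that move amino acids, neurotransmitters, small peptides and monocarboxylates across cell membranes. They were taken by symbol, as every gene of the SLC1, SLC3, SLC6, SLC7, SLC36, SLC38 and SLC43 families (amino acids and neurotransmitters), the SLC15 family (peptides) and the SLC16 family (monocarboxylates), which gave 82 of the 55401 genes in the table. The amino acid and neurotransmitter families held 63 of them, SLC15 held 5 and SLC16 held 14. No expression value was used to choose them.

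Amino acids that pass the glomerulus are taken back by the proximal tubule. Carriers of the brush border bring them into the cell, driven by sodium, protons or exchange, and other carriers of the basolateral side pass them on to the blood. Several carriers are pairs of a heavy chain (SLC3) and a light chain (SLC7), and others need an accessory protein such as collectrin to reach the membrane. Other members supply taurine, betaine and creatine, which kidney cells hold as osmolytes or energy stores, or feed growing cells and lysosomal nutrient sensing.

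Poly(A) RNA of kidney was sequenced from 8 diabetic mice, 4 given rFGF4 and 4 given vehicle, and each mouse has its own library. The labels name no part of the kidney, and the study's RNA isolation for real-time PCR names the renal cortex. rFGF4 is a recombinant human fibroblast growth factor 4 that was altered to lose its growth-promoting activity, and vehicle was PBS. The labels name *db*/*db* mice, which lack a working leptin receptor, in both groups, whereas the text of the study describes the sequenced animals as diabetic after streptozotocin (STZ), and the model was not settled here. For both models the methods give male mice and intraperitoneal injections of 1.0 mg/kg every other day over 8 weeks. Treatment schemes of both models give a start at 12 weeks of age, whereas the methods put 8 weeks of diabetes between the STZ injections and treatment. No kidney of a non-diabetic mouse was sequenced, so each comparison is between treated and untreated diabetic kidneys. Nothing beyond the mouse number in the labels describes the replicates, which were taken as separate animals.

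The values are FPKM, that is fragments per kilobase of transcript and scaled to library size, and their sum over genes lay between 389407 and 552604. Mitochondrial transcripts made up 19.0, 24.7, 29.8 and 36.0% of that sum in rFGF4 mice 1, 2, 3 and 5 and 38.4, 34.2, 37.2 and 24.4% in vehicle mice 2, 3, 4 and 5, so that 3 of the 4 treated mice lay below 3 of the 4 vehicle mice. Relative depth, read from the FPKM ratio that low genes shared most often, was 0.908 to 1.12 of vehicle mouse 2, and the counts behind a value are not known. Markers of the proximal tubule (*Lrp2*, *Slc34a1*, *Miox* and 3 others) were present in every library, and the 4 neuron markers summed to at most 0.633 FPKM. The kidneys of rFGF4 mouse 1 and vehicle mouse 5 stood apart from the others. The 7 macrophage markers summed to 1269, 458, 127 and 84.6 FPKM in rFGF4 mice 1, 2, 3 and 5 and to 46.8, 328, 59.0 and 1803 FPKM in vehicle mice 2, 3, 4 and 5, and all values below are listed in this order of mice. The 4 tubule injury markers, among them *Havcr1* (kidney injury molecule 1), summed to 789, 208, 73.1 and 22.2 FPKM in rFGF4-treated mice and 4.21, 142, 14.6 and 231 FPKM in vehicle-treated mice. The 7 lymphocyte markers, led by the immunoglobulin gene *Igkc*, summed to 23358 FPKM in vehicle mouse 5, 2745 FPKM in rFGF4 mouse 1 and 1425 FPKM or less in the others, and the 5 fibroblast markers to 116 FPKM in vehicle mouse 5, 94.2 FPKM in rFGF4 mouse 1 and to less in the others. In the same order as before, the 6 proximal tubule markers summed to 547, 1899, 2360.3 and 2319 FPKM in rFGF4-treated mice and 2253, 1363, 2753 and 1665 FPKM in vehicle-treated mice. Macrophage markers were thus highest in vehicle mouse 5 and rFGF4 mouse 1, and proximal tubule markers lowest in rFGF4 mouse 1. In RNA of bulk tissue, fewer cells of a type and less RNA per cell cannot be told apart.

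Expression of the members was led by carriers of the brush border and their partners. *Slc3a1* (ENSMUSG00000024131) encodes rBAT, the heavy chain of the cystine and dibasic amino acid exchanger that is lost in cystinuria, and had the highest mean of all members. Its level was 98.8, 213, 209 and 209 FPKM in rFGF4-treated mice and 244, 133, 219.8 and 138 FPKM in vehicle mice. rFGF4 mouse 1 was the lowest of the 8, and the other 3 treated mice lay within the vehicle range. *Slc6a18*, a carrier of glycine and other small neutral amino acids, followed with 85.7, 169, 144 and 96.3 FPKM in rFGF4-treated mice and 117, 121, 114 and 63.2 FPKM in vehicle mice. *Slc7a13*, a light chain for acidic amino acids and cystine that pairs with rBAT in the straight proximal tubule, was at 3.77, 39.2, 79.3 and 72.1 FPKM in rFGF4-treated mice and 131, 32.4, 77.1 and 38.8 FPKM in vehicle mice. Its mean over the 8 libraries was the third highest, whereas its mean in rFGF4-treated mice, 48.6 FPKM, was below those of *Slc6a6* (69.6 FPKM) and *Slc3a2* (51.9 FPKM). The 8 values of *Slc7a13* spanned 34.9-fold, the widest range of the tested members, with rFGF4 mouse 1 at the bottom and vehicle mouse 2 at the top. By the mean over the 8 libraries they were followed by *Slc6a6*, the taurine carrier, *Slc3a2*, the heavy chain CD98 of the basolateral exchangers, *Slc6a13*, a carrier of GABA and taurine, and *Slc16a9*, a carnitine carrier. *Slc6a19*, the main brush border carrier of neutral amino acids, *Slc7a7*, *Slc7a9* and the creatine carrier *Slc6a8* completed the abundant members shown, and the means of these 11 over the 8 libraries were 25.5 to 183 FPKM. Exons of *Prepl*, *Oxa1l* and *Sacm1l* on the other strand overlap *Slc3a1*, *Slc7a7* and *Slc6a20b*.

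**Figure D1:**
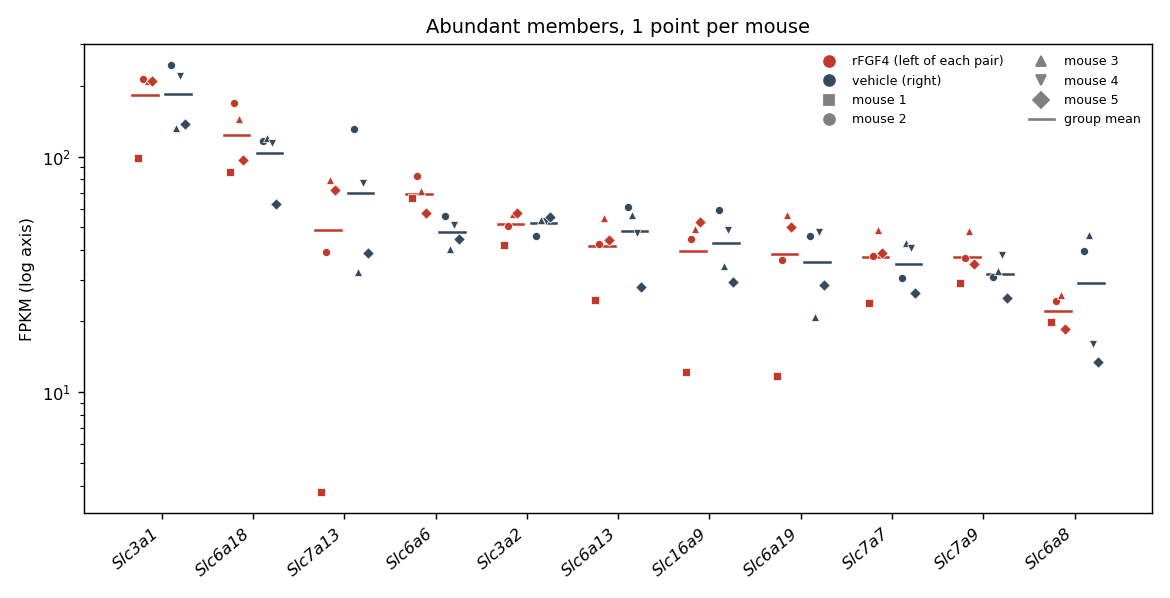
FPKM on a log axis of 11 of the 12 members with the highest mean, with 1 point per mouse, rFGF4 (red) to the left and vehicle (dark blue) to the right, the marker shape giving the mouse number and the line the group mean. The point of rFGF4 mouse 1 (red square) is the lowest of the 8 in 7 of the 11, and *Slc7a13* shows the widest spread, from 3.77 to 131 FPKM.

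At the other end, 2 members, *Slc36a3* and *Slc38a5*, were listed at 0 in all 8 libraries. A further 26 did not reach an FPKM of 0.5 in 4 libraries and were not tested, among them carriers of neurons and glia. The GABA carrier *Slc6a11*, the noradrenaline carrier *Slc6a2*, the dopamine carrier *Slc6a3*, the glycine carrier *Slc6a5* and the glutamate carriers *Slc1a6* and *Slc1a7* did not exceed 0.128 FPKM in any library. Of the 12 neurotransmitter carriers listed, 2 were tested, the serotonin carrier *Slc6a4* with 0.804 to 2.32 FPKM and *Slc6a17*, a carrier of synaptic vesicles, with 0.715 to 2.32 FPKM. The cystine carrier *Slc7a11*, a target of the stress factor ATF4, stayed below the limit with 0.0241 to 0.419 FPKM. *Slc36a2*, a proton-driven carrier of glycine and proline, was listed at 0 in 3 libraries and had its 2 highest values, 0.489 and 0.484 FPKM, in rFGF4 mouse 1 and vehicle mouse 5.

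A RefSeq promoter (assembly GRCm38.p6) was on hand for 58 of the 82 members, and the 250 bases before the start site are shown for the most abundant member and for *Slc16a12*, whose groups did not overlap (*Slc6a6* was not matched). The capitals mark CAAAGTCCA, a motif bound by HNF4, the factor that maintains proximal tubule identity.
*Slc3a1*, chr17:85028097-85028346, plus strand: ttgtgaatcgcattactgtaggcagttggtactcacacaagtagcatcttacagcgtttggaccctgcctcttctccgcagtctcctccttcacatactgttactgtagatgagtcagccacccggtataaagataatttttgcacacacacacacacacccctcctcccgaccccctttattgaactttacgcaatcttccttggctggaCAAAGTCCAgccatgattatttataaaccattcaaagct
*Slc16a12*, chr19:34747329-34747578, minus strand: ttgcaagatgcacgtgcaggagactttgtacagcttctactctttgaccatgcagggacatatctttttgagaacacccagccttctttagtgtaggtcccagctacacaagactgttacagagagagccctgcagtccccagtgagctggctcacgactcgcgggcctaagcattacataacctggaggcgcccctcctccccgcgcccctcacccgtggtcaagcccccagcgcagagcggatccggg
In *Slc3a1* the motif begins 39 bases before the start site. It was looked for on both strands after this sequence had been read, and it occurs in the window of 1 of the 58 members and of 108 of 27025 genes (0.4%). The HNF1 motif GTTAAT was in 5 of the 58 (8.6%, against 6.6% of all genes), the motif TGGAAA of NFAT5, the factor of the osmotic response, in 11 (19.0%, against 18.7%), and the ATF4 motif TGATGNAA in 3 (5.2%, against 3.5%). These are matches of letters on either strand and not tests of binding.

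The comparison of rFGF4 with vehicle asked which carriers differed in level after treatment of diabetic mice. At the study's threshold, which asks for a fold change of 1.5 or more and p under 0.05 before adjustment, 1 of the 54 tested members (*Slc6a9*) was higher in rFGF4-treated mice and 0 were lower, against 1.09% of all 15150 tested genes higher and 0.436% lower. By limma's moderated test on log2(FPKM + 1) with Benjamini-Hochberg adjustment, 0 members and 0% of all genes had an adjusted p under 0.05, and the smallest adjusted p among the members was 0.918. An unadjusted p under 0.05 was reached by 3 members, *Slc6a6*, *Slc16a12* and *Slc6a9*, all higher in rFGF4, where 4.62% of all genes reached it. The 4 treated and 4 vehicle values did not overlap for 2 members, both higher in rFGF4 (2.66% of all genes), and for 0 in the other direction (0.667%). The median log2 fold change, the difference of group means of log2(FPKM + 1), rFGF4 minus vehicle, was 0.08 for the 54 members and 0.09 for all tested genes, with 31 members above 0 and 23 below, that is 57.4% above 0 against 67.1% of all tested genes. Scaled to nuclear FPKM, without the mitochondrial transcripts whose share was lower in most treated mice, 2 members were higher (*Slc6a9* with a log2 fold change of 0.84 and *Slc6a6* with 0.63) and 0 lower, and the median was 0.18 over the members and 0.19 over all tested genes. The shares of members that were called are those of 1 to 3 genes and lie near the background.

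**Figure D2:**
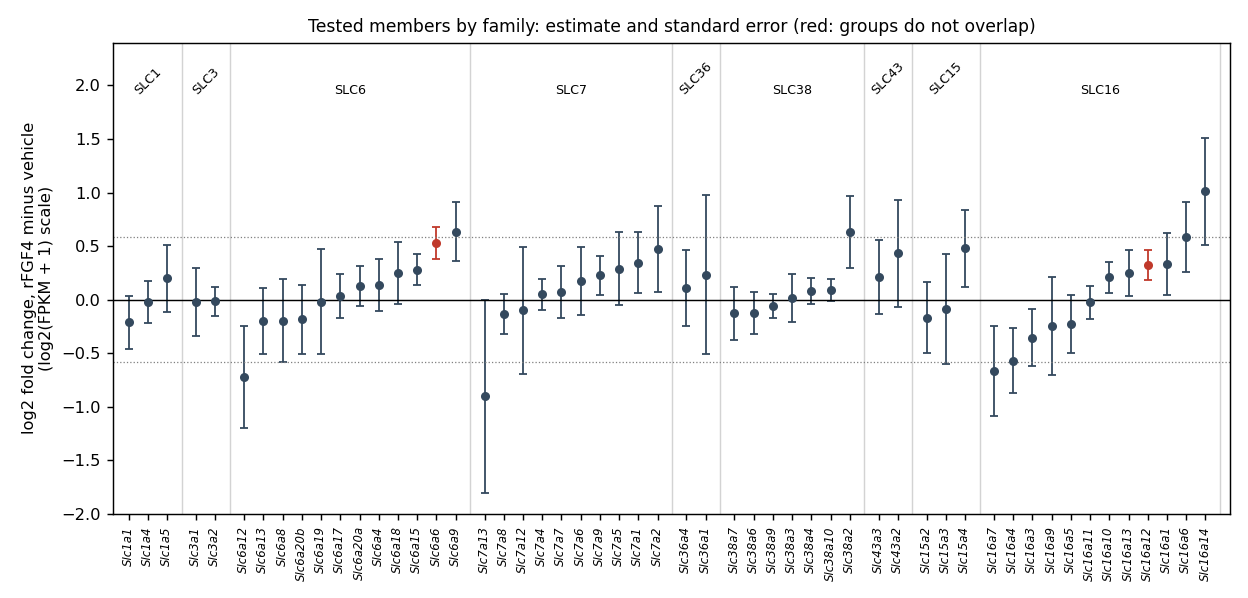
Log2 fold change (rFGF4 minus vehicle, log2(FPKM + 1) scale) of 53 of the 54 tested members as points with bars of 1 standard error, ordered within family, with dotted lines at a fold change of 1.5. The estimates of *Slc6a6* and *Slc16a12* (red) were 0.53 and 0.32, *Slc16a14* was highest at 1.01, and *Slc7a13* was lowest at -0.90 with the longest bar.

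The member with the smallest p was *Slc6a6* (ENSMUSG00000030096, chromosome 6, 91684053 to 91759066, plus strand, GRCm38), the sodium- and chloride-dependent taurine carrier. Taurine is an osmolyte that the kidney reabsorbs by this carrier. Its level was 67.0, 82.5, 71.2 and 57.8 FPKM in rFGF4-treated mice and 55.7, 40.3, 51.1 and 44.7 FPKM in vehicle mice. Every treated mouse was above every vehicle mouse, the nearest pair being rFGF4 mouse 5 and vehicle mouse 2. The means were 69.6 ± 10.2 FPKM and 48.0 ± 6.80 FPKM (SD, n = 4 each), and the log2 fold change was 0.53 ± 0.15 (SE), with a 95% interval of 0.18 to 0.88. The exact two-sided permutation test gave p = 0.0286, the smallest that 4 mice against 4 allow, and the limma adjusted p was 0.918. Without rFGF4 mouse 1 and vehicle mouse 5 the log2 fold change was 0.51, and scaled to a common median ratio of the libraries it was 0.40 with an unadjusted p of 0.0676. An annotated gene on the other strand, *Gm44981*, overlaps an exon of *Slc6a6*, and the sources used here do not say whether strand was used in counting.

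*Slc16a12* (ENSMUSG00000009378, chromosome 19, 34668403 to 34747289, minus strand) encodes a creatine carrier of the basolateral membrane. Its level was 18.8, 14.6, 19.2 and 14.7 FPKM in rFGF4-treated mice and 13.5, 11.3, 14.2 and 13.9 FPKM in vehicle mice. The groups did not overlap, but the lowest treated value lay only just above the highest vehicle value. The log2 fold change was 0.32 ± 0.14 (SE), a fold change under 1.5, with an exact permutation p = 0.0286 and a limma adjusted p of 0.918. Scaled to a common median ratio it was 0.20 with an unadjusted p of 0.207.

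*Slc6a9*, the glycine carrier GLYT1, was the only member past the threshold, with 6.84, 5.91, 3.75 and 3.21 FPKM in rFGF4-treated mice and 2.77, 3.11, 1.44 and 3.92 FPKM in vehicle mice. The groups overlapped, since rFGF4 mice 3 and 5 were below vehicle mouse 5. The log2 fold change was 0.63 ± 0.28 (SE), with an exact permutation p = 0.114 and a limma adjusted p of 0.918. Exons of *B4galt2* and *Ccdc24* on the other strand overlap the gene. Its 2 highest values were those of rFGF4 mice 1 and 2, which had the highest injury marker sums of the treated mice, and the part of injury in this difference was not tested. Without rFGF4 mouse 1 and vehicle mouse 5 the log2 fold change was 0.62 with an unadjusted p of 0.0588, and the call was lost in 10 of the refits and at both stricter thresholds.

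*Slc16a14*, a carrier of the monocarboxylate family whose substrates are poorly known, had the largest estimate of the tested members, 1.01 ± 0.50 (SE), with 5.23, 9.28, 28.9 and 7.41 FPKM in rFGF4-treated mice and 3.21, 8.58, 5.31 and 2.83 FPKM in vehicle mice. The highest treated value, in rFGF4 mouse 3, stood far above the other 7, and the groups overlapped (exact permutation p = 0.143). Without rFGF4 mouse 3 the log2 fold change was 0.54, whereas without rFGF4 mouse 1 (1.30) or without vehicle mouse 3 (1.27) it passed the threshold.

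**Figure D3:**
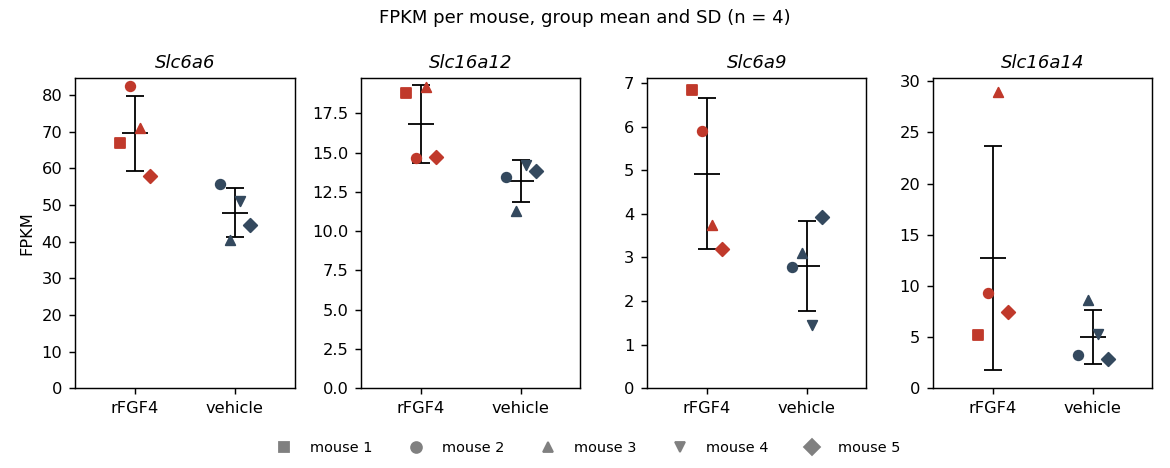
FPKM per mouse of *Slc6a6*, *Slc16a12*, *Slc6a9* and *Slc16a14* on linear axes from 0, with the mean and SD of 4 mice in black and the marker shape giving the mouse number. The groups are apart in *Slc6a6* (57.8 and above against 55.7 and below) and *Slc16a12*, overlap in *Slc6a9*, and in *Slc16a14* the mean of the treated mice is drawn up by the value of 28.9 in mouse 3.

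Of the 10 carriers of the apical, brush border side (listed after values had been seen), 9 were tested, 0 passed the threshold in either direction, and 4 had a log2 fold change above 0 (44.4%, against 67.1% of all tested genes). Their summed level was 273, 557, 619 and 523 FPKM in rFGF4-treated mice and 646, 385, 579 and 349 FPKM in vehicle-treated mice. rFGF4 mouse 1 had the lowest sum, and vehicle mice 5 and 3 were next, so that the spread within each group was wider than the difference between the groups. *Slc7a9*, the light chain that pairs with rBAT, was at 29.2, 37.3, 48.4 and 35.1 FPKM in rFGF4-treated mice and 30.9, 32.7, 38.2 and 25.0 FPKM in vehicle mice, a log2 fold change of 0.23 ± 0.18 (SE). *Slc6a19* was at 11.7, 36.5, 56.4 and 50.1 FPKM in rFGF4-treated mice and 45.8, 20.9, 48.1 and 28.5 FPKM in vehicle mice, with 2 treated mice above the vehicle range, 1 within it and mouse 1 below it. Its log2 fold change was -0.02 ± 0.49 (SE).

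*Slc1a1*, the glutamate and aspartate carrier EAAC1, was at 13.6, 24.1, 25.4 and 23.1 FPKM in rFGF4-treated mice and 30.2, 21.3, 30.8 and 18.0 FPKM in vehicle mice, and rFGF4 mouse 1 was again the lowest. For *Slc7a13*, described above, the log2 fold change was -0.90 ± 0.90 (SE), with an exact permutation p = 0.571. The proline carriers *Slc6a20a* and *Slc6a20b* are close copies of each other and their values are uncertain where reads could be shared. *Slc6a20b* ranged from 8.60 to 26.0 FPKM, *Slc6a20a* from 5.57 to 10.8 FPKM, and neither was past the threshold. *Slc36a1*, a proton-driven carrier of glycine, alanine and proline, was at 11.3, 8.26, 20.9 and 2.48 FPKM in rFGF4-treated mice and 9.92, 1.18, 17.5 and 9.36 FPKM in vehicle mice. In each group 1 mouse was far below the others, rFGF4 mouse 5 and vehicle mouse 3.

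The 6 carriers of the basolateral side (listed after values had been seen), which release amino acids to the blood or exchange them, were all tested, with 0 past the threshold and 4 above 0 (66.7%, against 67.1% of all tested genes). Their sum was 111, 152, 170.4 and 162 FPKM in rFGF4-treated mice and 139, 153, 151 and 139.6 FPKM in vehicle-treated mice, a narrower range than that of the apical carriers. *Slc3a2* varied least among the abundant members, at 42.0, 50.6, 57.1 and 57.8 FPKM in rFGF4-treated mice and 46.1, 53.9, 53.3 and 55.6 FPKM in vehicle mice, and its log2 fold change was -0.02 ± 0.13 (SE) with a 95% interval of -0.33 to 0.29. *Slc7a7*, the light chain for dibasic amino acids that is lost in lysinuric protein intolerance, was at 23.9, 37.8, 48.9 and 39.0 FPKM in rFGF4-treated mice and 30.4, 42.8, 41.0 and 26.3 FPKM in vehicle mice. *Slc7a8*, the light chain LAT2 for neutral amino acids, ranged from 17.6 to 29.5 FPKM, and *Slc38a3*, the glutamine carrier that supplies ammonia production, from 15.5 to 29.3 FPKM. *Slc43a2*, a uniporter of branched and aromatic amino acids, was at 8.04, 13.3, 16.8 and 15.8 FPKM in rFGF4-treated mice and 12.5, 15.5, 2.42 and 14.3 FPKM in vehicle mice, and vehicle mouse 4 was far below the other 7 mice.

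In the SLC6 family, the other carriers of osmolytes, creatine and GABA that were listed with *Slc6a6* had estimates below 0, and none passed the threshold. *Slc6a12*, the betaine carrier BGT1 of the medulla, was at 0.847, 2.37, 0.862 and 6.90 FPKM in rFGF4-treated mice and 7.11, 2.96, 4.32 and 3.01 FPKM in vehicle mice. rFGF4 mice 1, 2 and 3 were below every vehicle mouse, but rFGF4 mouse 5 was near the top, and the log2 fold change was -0.73 ± 0.48 (SE). *Slc6a13* was at 24.7, 42.6, 54.9 and 44.4 FPKM in rFGF4-treated mice and 61.3, 56.2, 47.3 and 27.9 FPKM in vehicle mice, and the creatine carrier *Slc6a8* at 19.8, 24.3, 25.9 and 18.4 FPKM in rFGF4-treated mice and 39.6, 46.6, 16.04 and 13.4 FPKM in vehicle mice. For *Slc6a8*, vehicle mice 2 and 3 were above all treated mice and vehicle mice 4 and 5 below them. The log2 fold changes were -0.20 ± 0.31 (SE) for *Slc6a13* and -0.20 ± 0.39 (SE) for *Slc6a8*.

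Carriers that feed growing or stressed cells had their highest sums in rFGF4 mouse 1 and vehicle mouse 5, the mice with the lowest apical sums, and the order of the other mice was not the reverse of the apical order. Of 13 listed, 9 were tested, 1 passed the threshold (*Slc6a9*) and 8 had a log2 fold change above 0 (88.9%, against 67.1% of all tested genes), with a median of 0.29 against 0.09 for all genes. The list was made after values had been seen, so that its share and median are descriptions and not a test. The listed carriers summed to 81.9, 63.1, 40.1 and 39.0 FPKM in rFGF4-treated mice and 32.9, 45.8, 30.6 and 66.1 FPKM in vehicle-treated mice. rFGF4 mouse 1 and vehicle mouse 5, the kidneys with the highest macrophage sums, were followed by rFGF4 mouse 2, whose apical sum was 557 FPKM, and rFGF4 mouse 1 was the highest of the 8 mice in 7 of the 9 carriers and in 48.1% of all tested genes. *Slc7a5*, the light chain LAT1 of large neutral amino acids, was at 5.78, 2.60, 1.49 and 1.55 FPKM in rFGF4-treated mice and 2.01, 1.34, 1.43 and 3.07 FPKM in vehicle mice. The arginine carriers were highest in the same mouse, *Slc7a1* at 3.04, 1.55, 0.948 and 0.673 FPKM in rFGF4-treated mice and 0.932, 0.794, 0.505 and 1.47 FPKM in vehicle mice and *Slc7a2* at 4.18, 1.61, 0.638 and 0.390 FPKM in rFGF4-treated mice and 0.422, 0.975, 0.335 and 1.23 FPKM in vehicle mice. For *Slc7a5*, 3 of the 4 treated mice lay within the vehicle range, and for *Slc7a2* 2 did.

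*Slc38a2*, the SNAT2 carrier that cells induce when amino acids run short, was at 17.5, 17.1, 9.59 and 10.1 FPKM in rFGF4-treated mice and 4.46, 9.11, 6.96 and 14.6 FPKM in vehicle mice, with a log2 fold change of 0.63 ± 0.34 (SE) (exact permutation p = 0.143, limma adjusted p = 0.918). All 4 treated values were above the vehicle mean, and vehicle mouse 5 lay among them. The glutamine carrier *Slc1a5* was at 23.9, 16.3, 12.4 and 11.0 FPKM in rFGF4-treated mice and 9.96, 16.02, 8.87 and 20.8 FPKM in vehicle mice, a log2 fold change of 0.20 ± 0.32 (SE). *Slc1a4*, a carrier of serine and alanine, ranged from 3.88 to 6.80 FPKM, and its groups overlapped throughout. The part of infiltrating or injured cells in these values was not tested.

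The 5 carriers of lysosomes and other inner membranes were all tested and 0 passed the threshold. *Slc38a9*, the arginine sensor that reports to mTORC1, was at 0.995, 0.899, 0.758 and 0.828 FPKM in rFGF4-treated mice and 0.773, 0.912, 0.880 and 1.25 FPKM in vehicle mice, a narrow range with a log2 fold change of -0.06 ± 0.11 (SE). *Slc38a10* was the steadiest member, from 19.3 to 24.4 FPKM, a span of 1.27-fold over the 8 mice. *Slc36a4*, in contrast, was at 2.16, 1.64, 0.290 and 1.54 FPKM in rFGF4-treated mice and 1.32, 0.227, 1.28 and 2.12 FPKM in vehicle mice, with mouse 3 of each group far below the rest.

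Of the 5 peptide carriers of SLC15, 3 were tested and 0 passed the threshold. *Slc15a2*, the high-affinity peptide carrier of the late proximal tubule, was at 3.35, 11.0, 9.08 and 6.33 FPKM in rFGF4-treated mice and 11.2, 7.71, 5.18 and 8.42 FPKM in vehicle mice, and the low-affinity carrier of the gut, *Slc15a1*, did not exceed 0.199 FPKM. *Slc15a3* and *Slc15a4* carry histidine and small peptides out of the lysosomes of immune cells. *Slc15a3* was at 2.92, 1.68, 0.412 and 0.536 FPKM in rFGF4-treated mice and 0.210, 2.72, 0.441 and 3.52 FPKM in vehicle mice, with the highest values in vehicle mouse 5, rFGF4 mouse 1 and vehicle mouse 3, 3 of the 4 mice with the highest macrophage sums. *Slc15a4* was at 5.21, 3.47, 2.65 and 1.72 FPKM in rFGF4-treated mice and 2, 2.21, 0.601 and 3.75 FPKM in vehicle mice, a log2 fold change of 0.48 ± 0.36 (SE), with vehicle mouse 4 lowest. The log2 fold change was 0.19 without vehicle mouse 4 and 0.71 without vehicle mouse 5.

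Of the 14 members of SLC16, 13 were tested, 0 passed the threshold, and the median log2 fold change was 0.21, with 7 above 0 and 6 below (53.8% above 0, against 67.1% of all tested genes). Lactate and pyruvate are moved by *Slc16a1*, *Slc16a7* and *Slc16a3*. *Slc16a1* (MCT1) was at 10.1, 9.33, 9.37 and 4.30 FPKM in rFGF4-treated mice and 3.66, 7.04, 7.49 and 6.86 FPKM in vehicle mice, with 1 low mouse in each group. *Slc16a7* (MCT2) was at 2.81, 7.36, 5.61 and 13.4 FPKM in rFGF4-treated mice and 18.6, 7.25, 11.9 and 8.26 FPKM in vehicle mice, a log2 fold change of -0.67 ± 0.42 (SE), with rFGF4 mouse 1 lowest. *Slc16a3* (MCT4), the carrier of glycolytic cells, was at 1.24, 0.422, 0.245 and 0.391 FPKM in rFGF4-treated mice and 0.525, 1.54, 0.468 and 1.59 FPKM in vehicle mice, and its 3 highest values were those of vehicle mouse 5, vehicle mouse 3 and rFGF4 mouse 1.

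Other SLC16 members carry aromatic amino acids and carnitine. *Slc16a10*, which releases aromatic amino acids, ranged from 3.88 to 6.38 FPKM with overlapping groups. *Slc16a9* was at 12.1, 44.5, 49.1 and 52.8 FPKM in rFGF4-treated mice and 59.3, 34.3, 48.6 and 29.2 FPKM in vehicle mice, and rFGF4 mouse 1 again lay far below the other treated mice. Among the 10 members with the smallest p, *Slc16a4* was at 3.27, 6.63, 6.36 and 10.9 FPKM in rFGF4-treated mice and 11.2, 9.47, 12.4 and 7.21 FPKM in vehicle mice (log2 fold change -0.57 ± 0.30 (SE)), *Slc16a6*, a ketone body carrier, had 0.59 ± 0.33 (SE), and *Slc6a15*, a carrier of branched amino acids, had 0.28 ± 0.15 (SE). The groups overlapped in each of them.

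The spread of the members between mice of a group was compared with that of other lists from the same kidneys. Their median SD within groups on the log2(FPKM + 1) scale was 0.449, against 0.275 over all tested genes, 0.465 over the organic ion transporters, 0.436 over the genes of amino acid breakdown and 0.484 over those of the ATF4 response, and also against 0.335 over the sugar transporters and 0.172 over the genes of mTORC1 amino acid sensing. In the members the median ratio of the highest to the lowest of the 8 values was 2.95 against 2.21. rFGF4 mouse 1 held the lowest value in 17 of the 54 members (31.5%, against 10.9% of all tested genes) and the highest in 15 (27.8%, against 48.1%). Of the 9 tested apical carriers it was lowest in 5, and of the 9 tested growth and nutrient carriers in 0. Without rFGF4 mouse 1 and vehicle mouse 5, a choice made after seeing the data, 1 member passed the threshold, *Slc38a2*, with a log2 fold change of 0.76. In that fit 202 of all 15150 tested genes were higher and 71 lower. The median was 0.13 over the members and 0.07 over all tested genes.

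**Figure D4:**
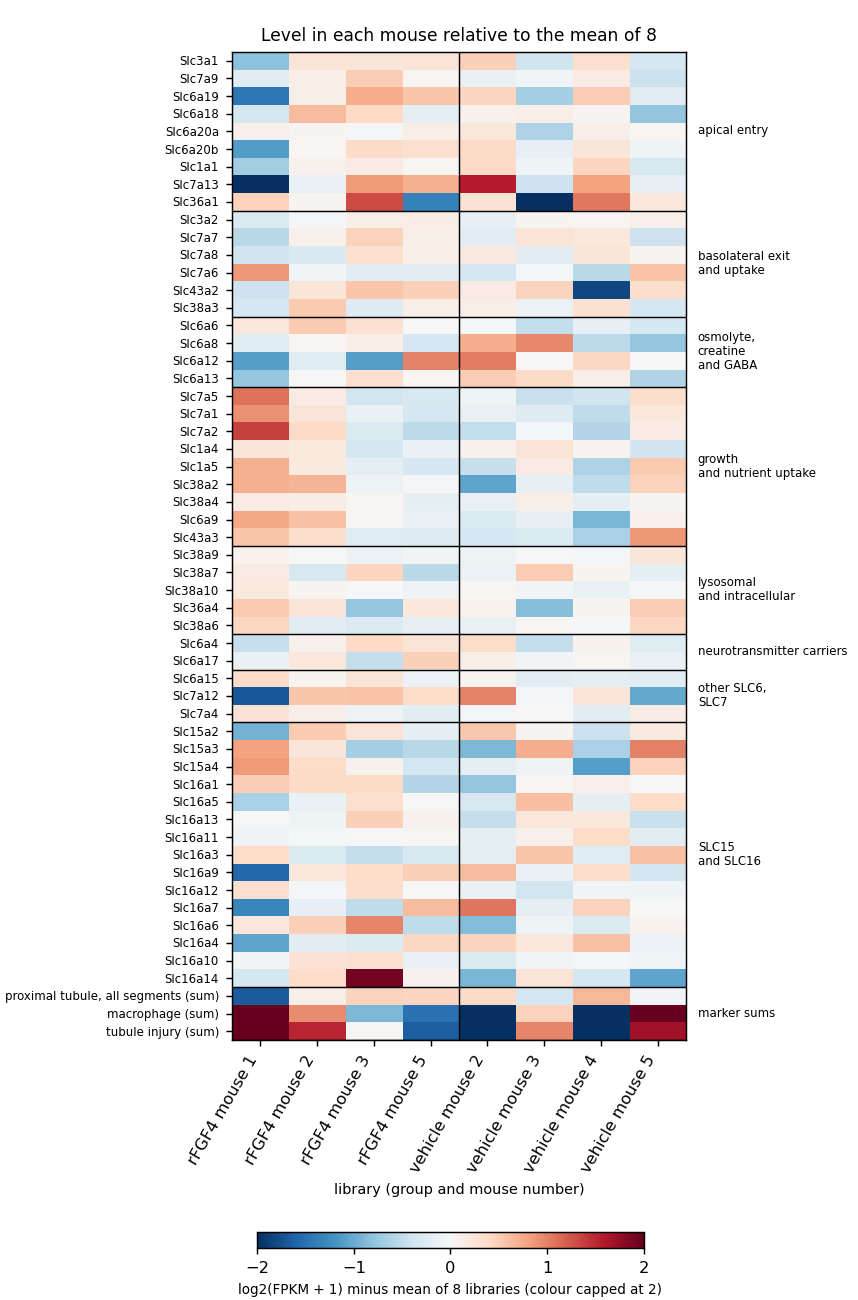
Each row is 1 of 53 tested members or, in the last 3 rows, a summed marker list, each column a mouse, and the colour is log2(FPKM + 1) minus the mean of the 8 libraries, red above and blue below, capped at 2. The column of rFGF4 mouse 1 is blue in most apical carriers, *Slc7a12* and *Slc16a9* and red in the growth and nutrient carriers, and its macrophage and injury marker sums are red.

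The genes around the carriers were counted in the same way, from lists chosen with earlier results of these data known. Of 7 partner and scaffold genes tested, 0 passed the threshold and 3 were above 0 (42.9%, against 67.1% of all tested genes). *Cltrn* (collectrin) brings *Slc6a19* and *Slc6a18* proteins to the brush border. Its level was 194, 521, 823 and 577 FPKM in rFGF4-treated mice and 553, 418, 615 and 410.2 FPKM in vehicle-treated mice. rFGF4 mouse 1 was lowest, as for *Slc6a19*, whereas *Slc6a18* was lowest in vehicle mouse 5. Of 21 genes of the ATF4 and amino acid response, 0 passed the threshold and 17 were above 0 (67.1% of all tested genes were), with a median of 0.25, and rFGF4 mouse 1 was highest in 11 (in 48.1% of all tested genes). Of 23 genes of mTORC1 amino acid sensing, 1 was higher at the threshold and 0 lower, against 1.09% and 0.436% of all tested genes. It was *Lamtor3*, a Ragulator subunit, at 6.01, 8.94, 7.27 and 6.94 FPKM in rFGF4-treated mice and 4.15, 3.71, 4.64 and 5.61 FPKM in vehicle-treated mice, with groups that did not overlap and a log2 fold change of 0.59 ± 0.16 (SE). Its limma adjusted p was 0.918. *Tsc1* of the same list was also higher in every treated mouse than in every vehicle mouse, with a log2 fold change of 0.28 ± 0.14 (SE). It did not pass the threshold, and 2.66% of all tested genes had such groups.

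Of 31 genes of amino acid breakdown in the kidney, 0 passed the threshold and 11 were above 0 (35.5%, against 67.1% of all tested genes). rFGF4 mouse 1 was lowest in 23 of them (74.2%, against 10.9% of all tested genes). Other transporters of the proximal tubule were counted beside the members. Of 18 tested sugar transporters 1 was higher (*Slc5a1*) and 0 lower, and of 26 tested organic ion transporters 0 were higher and 2 lower (*Slc22a7* and *Slc22a19*), against 1.09% of all tested genes higher and 0.436% lower. rFGF4 mouse 1 was lowest in 12 of the sugar and 17 of the organic ion transporters, against 10.9% of all tested genes. Their medians were -0.11 and -0.12, and that of the members 0.08, with 0.09 for all tested genes.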

How the data were processed

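Kidney RNA of 8 diabetic mice was sequenced, 4 given rFGF4 and 4 vehicle, and samples were grouped by the labels. The authors aligned the reads, assembled transcripts with StringTie and deposited FPKM for 55401 genes. The submitters' processing notes name Bowtie 0.12.2, HISAT2 2.0, StringTie 1.3.0 and the build mm8. The deposited FPKM show 0.0001 in place of 0 and no counts. The authors' own edgeR comparison (fold change, its log2, p, q, direction and significance) stands in the same table and was not used. Positions came from GENCODE M21 (GRCm38), in which 55141 identifiers were found. The authors' edgeR test needs counts and could not be run on these values. Instead, the 15150 genes that reached 0.5 FPKM in 4 libraries or more entered limma 3.58.1 in R 4.3.3, on log2(FPKM + 1), with a trend in the prior variance, no covariate and Benjamini-Hochberg adjustment over all of them. Fold changes on this scale understate changes of low genes. The threshold was that of the methods, p under 0.05 before adjustment with a fold change of 1.5 or more. Single members were also compared by a two-sided exact permutation test (SciPy 1.17.1 in Python 3.11.15). The fit was tested on simulated data. Figures were drawn with matplotlib 3.10.9.

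The members, the lists and the tests were chosen with earlier results of these data known, and the grouping of carriers by role was made after the values had been seen. Members were named where they passed the threshold (1), where the groups did not overlap (2), among the 12 highest means (the results of some of the members are not reported here), among the 10 smallest p, or in a list of 38 by function. Others are named as examples chosen after their values were seen. The p-values measure the spread between these mice. Alternatives were a pseudocount of 0.1, no filter, scaling to a common median ratio or to a fixed sum of FPKM outside the mitochondrial genome, a fold change of at least 2, an adjusted p, each mouse left out, and a block for mouse number. Leaving out rFGF4 mouse 1 and vehicle mouse 5 together was added after seeing the data.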

Additional observations from a re-analysis of the deposited data

Results flagged for a closer look

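On the log2(FPKM + 1) scale, 1 mouse in 11 of 108 groups of 4 lay so far from the other 3 that its gap exceeded Dixon's 95% limit as a share of the range, where chance flags about 1 in 20 groups (5.4 of 108). Shares of the range are on that scale unless FPKM is named. On FPKM itself 10 groups exceeded the limit, and 8 did on both scales, *Slc1a1* (0.806 on FPKM), *Slc16a9* (0.797 on FPKM) and *Slc43a2* (0.775 on FPKM) being past it on the log2 scale but not on FPKM. The kidney of rFGF4 mouse 1 accounted for 6 of the 11. It was lowest in *Slc3a1* (0.976 of the log2 range, with 98.8 against 209 to 213 FPKM), *Slc7a12* (0.915), *Slc16a9* (0.882) and *Slc1a1* (0.847), and highest in *Slc7a6* (0.843) and *Slc38a6* (0.841). The same mouse had the lowest proximal tubule marker sum and the highest injury marker sum, and their part in these values was not tested.

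The other 5 were spread over 4 mice. *Slc6a18* was lowest in vehicle mouse 5 (0.912 on the log2 scale, with 63.2 against 114 to 121 FPKM). *Slc16a1* was low in rFGF4 mouse 5 (0.900) and in vehicle mouse 2 (0.872), and *Slc16a10* was low in vehicle mouse 2 (0.899). *Slc43a2* was low in vehicle mouse 4 (0.875 on the log2 scale, with 2.42 against 12.5 to 15.5 FPKM).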

How the results depend on the processing

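No member changed direction at a call under any alternative, but few members were called. The sign of the estimate changed in 14 of the 54 members without rFGF4 mouse 1 and in 10 without vehicle mouse 3. It changed in 8 without rFGF4 mouse 1 and vehicle mouse 5, and in 0 to 6 under the other alternatives apart from the block for mouse number. The count of members higher at the threshold was 1. It was 0 with a pseudocount of 0.1, with no filter, after scaling to a common median ratio, at a fold change of at least 2 and at an adjusted p under 0.05, and 2 when libraries were scaled to a fixed sum of FPKM outside the mitochondrial genome (*Slc6a9* and *Slc6a6*). Leaving out 1 mouse gave 0 to 3. Without rFGF4 mouse 5 there were 3 (*Slc16a6*, *Slc6a9* and *Slc6a6*), without vehicle mouse 5 there were 2 (*Slc6a9* and *Slc38a2*), and without rFGF4 mouse 2 or vehicle mouse 4 there were 0. The single member was *Slc16a14* without rFGF4 mouse 1 or vehicle mouse 3, *Slc6a6* without vehicle mouse 2 and *Slc6a9* without rFGF4 mouse 3. The count of lower members was 0, and 0 to 3 with 1 mouse left out. The 3 were *Slc16a7*, *Slc16a4* and *Slc6a12*, without rFGF4 mouse 5. In that fit 156 of all tested genes were lower, against 66 with all 8 mice.

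The median log2 fold change was 0.08 for the 54 members and also for the 38 amino acid and neurotransmitter members. Scaling to a common median ratio gave -0.020 for both and 26 members above 0, and the scaling outside the mitochondrial genome gave 0.18 for both and 37 members above 0. These scalings moved the median over all genes from 0.09 to -0.01 and 0.19, and the genes called higher and lower from 165 and 66 to 93 and 81 and to 396 and 63. The cause of their difference was not tested. With no filter, the median was -0.003 over the members then tested. For the 39 tested members named by rule, 12 values became stronger, 10 weaker (all *Slc6a9*) and 524 kept their side of the threshold or their place within 1 SD. The other tested members, *Slc16a3* among them, were not in this tally.

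The mouse numbers 2, 3 and 5 occur in both groups, and the labels do not say whether they pair the mice. Deviations of same-numbered mice correlated at -0.23, -0.16 and -0.39, so that these mice did not deviate alike. Mice of different numbers correlated at -0.56 to 0.57, a spread too wide for these values to settle pairing. With the replicate block, under which 21 members changed sign without a call, the fit on these 6 mice gave 1 higher member (*Slc16a14*, log2 fold change 1.35) and 1 lower (*Slc16a3*). Of all 15150 tested genes it gave 182 higher and 81 lower. A table without counts gives no counting error, and low members such as *Slc38a9* rest on an unknown number of fragments.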

Other observations

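Some carriers were far lower in 1 or 2 kidneys than in the rest. *Slc36a1* was at 2.48 FPKM in rFGF4 mouse 5 and 1.18 FPKM in vehicle mouse 3, and at 8.26 to 20.9 FPKM in the other 6 mice. Its relative *Slc36a4*, a carrier of proline and tryptophan, was low in the same vehicle kidney and in another treated kidney, at 0.227 FPKM in vehicle mouse 3 and 0.290 FPKM in rFGF4 mouse 3, against 1.28 FPKM or more in the rest. *Slc6a8* differed within the vehicle group, with 39.6 and 46.6 FPKM in mice 2 and 3 and 16.04 and 13.4 FPKM in mice 4 and 5. These members were picked out after their values were seen, for their spread.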
